A study of Homo sapiens with 4 samples.

Results

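The response to a miR-34a mimic was measured in DDX21 KO cells, in which the RNA helicase gene DDX21 was knocked out in H1299, a human line from a non-small cell lung carcinoma. A gene was included when either DDX21 KO library held 50 reads or more of it, which left 13382 of the 46427 genes in the deposited table. Per the labels, the miR-34a-transfected DDX21 KO cells received the mimic with a lipid reagent at 25 nM of RNA and were harvested after 48 h. They were set against non-treated DDX21 KO cells. The same pair in parental H1299, miR-34a-transfected and non-treated, is given beside it where the lines are compared. Each of the 4 groups had 1 library of total RNA depleted of ribosomal RNA, so no difference below has a replicate check and no p-value was computed. No control RNA or mock transfection is named for the non-treated cells, and the effects of the mimic and of transfection cannot be told apart. The sources used here do not say which bases were edited or whether the line is 1 clone.

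MicroRNAs guide an Argonaute protein to messenger RNAs, mostly through pairing of the seed, bases 2 to 8 of the microRNA, with the 3' untranslated region (3' UTR). Bound messages are translated less and degraded. miR-34a is known for repressing receptors, G1 cyclins and kinases, and survival factors. Its seed is shared by the miR-449 family, which is known from multiciliated airway cells. DDX21 is a nucleolar DEAD-box helicase of ribosomal RNA synthesis and processing.

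Checks of the libraries came first. DDX21 itself stood at 182 CPM, counts scaled to the library size, with miR-34a and 206 CPM without it in DDX21 KO cells, against 588 and 722 CPM in the H1299 libraries of the same order, so its mRNA was low in the knockout line but present. Protein was not measured. The totals were 32240536 estimated counts in the miR-34a DDX21 KO library and 26868358 in the non-treated one, of which 86.9% and 88.5% fell on protein-coding genes and 0.467% and 0.346% on ribosomal RNA. A floor of 3 counts was worth 0.0915 and 0.111 CPM. Epithelial keratins and vimentin of the carcinoma line were abundant, with KRT18 at 1838 and 1191 CPM, KRT8 at 617 and 402 CPM and VIM at 1931 and 1730 CPM. Marker genes of other cell types were near the floor: none of 10 leukocyte, 8 fibroblast and 5 erythroid markers had 50 reads, and of 6 endothelial markers only KDR did, with 189 and 101 reads.

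The sequences below show the mimic's guide strand and miR-449a and miR-449b-5p, which share its seed. For comparison, the opposite strand of the same hairpin is added, and bases 2 to 8 are in capitals. The list of microRNAs with this seed need not be complete. They come from RefSeq on GRCh38.p14, where miR-34a-5p lies at chr1:9151735-9151756 on the minus strand. The labels give no sequence for the mimic, and hsa-miR-34a-5p was taken for it.
hsa-miR-34a-5p: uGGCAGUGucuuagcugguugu
hsa-miR-449a: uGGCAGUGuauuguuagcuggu
hsa-miR-449b-5p: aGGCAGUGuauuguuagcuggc
hsa-miR-34a-3p: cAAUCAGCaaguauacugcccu

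The complement of the seed is CACTGCC, called here a 7-mer-m8 site. With a following A it is the 8-mer CACTGCCA. ACTGCCA is the 7-mer-A1 and ACTGCC the 6-mer. Sites were searched on the message strand of GENCODE 29 transcripts, and each gene is described by its strongest class. A match describes the letters and does not show binding. The 30-base stretches below, on GRCh38, hold the first site of that class in genes whose levels are described further on. The capitals mark the match. The distance from the stop codon is that of the first base of ACTGCC, which all classes share. The first 12 belong to genes that were lower with miR-34a.
AXL, 8-mer, 45 bases after the stop codon, chr19:41259929-41259958, plus strand: tctcaggatccaagctaagCACTGCCActg
RRAS, 8-mer, 272 bases after the stop codon, chr19:49635295-49635324, minus strand: cccccagaaaaataaatgtCACTGCCAacg
ARPP19, 8-mer, 4206 bases after the stop codon, chr15:52547719-52547748, minus strand: ccaactctaactcagcacaCACTGCCAgtc
MPP2, 8-mer, 167 bases after the stop codon, chr17:43877631-43877660, minus strand: gcttcagcacagaggcgtgCACTGCCAggg
TMED8, 8-mer, 495 bases after the stop codon, chr14:77341267-77341296, minus strand: gctctatccagcctgtcacCACTGCCAtat
ACSL4, 8-mer, 1914 bases after the stop codon, chrX:109642106-109642135, minus strand: caactcccaaaagctagaaCACTGCCAact
MET, 7-mer-m8, 52 bases after the stop codon, chr7:116796155-116796184, plus strand: actttgtccaatggttttttCACTGCCtga
CDK6, 7-mer-m8, 1089 bases after the stop codon, chr7:92614043-92614072, minus strand: acactgtactttctgccacaCACTGCCttg
HDAC1, 7-mer-m8, 460 bases after the stop codon, chr1:32333483-32333512, plus strand: gcctcaagtgagccaagaaaCACTGCCtgc
TK1, 7-mer-m8, 35 bases after the stop codon, chr17:78174716-78174745, minus strand: gccgcccgctcccttcctgcCACTGCCgcc
TSEN15, 7-mer-m8, 991 bases after the stop codon, chr1:184094730-184094759, plus strand: ccatcaaatgattcccaccaCACTGCCtgc
MIEF1, 7-mer-A1, 839 bases after the stop codon, chr22:39515142-39515171, plus strand: tcagacagacaaggatggggACTGCCAggg

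The next 3 belong to reported targets that hold a match and were not lower with miR-34a.
KLF4, 8-mer, 26 bases after the stop codon, chr9:107485716-107485745, minus strand: agacagtggatatgacccaCACTGCCAgaa
IL6R, 8-mer, 75 bases after the stop codon, chr1:154465435-154465464, plus strand: ctcagcaaaagatgcttctCACTGCCAtgc
CD274, 7-mer-A1, 932 bases after the stop codon, chr9:5468774-5468803, plus strand: cagtaaatagcagacctcagACTGCCAccc

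Most of the transcriptome of DDX21 KO cells lay close to no change with the mimic. The median log2 ratio, miR-34a over non-treated, was 0.0002 with an SD of 0.45 across genes, the 5th and 95th percentiles were -0.66 and 0.64, and 87.1% of genes were within 1.5-fold. Genes past 2-fold in either direction, with a 95% counting interval off 0 (in brackets below), count as called and are termed higher or lower. By this rule 217 genes (1.62%) were higher and 226 (1.69%) lower. Among the 11763 protein-coding genes the counts were 180 (1.53%) and 189 (1.61%). Of the 217 higher, 110 were among the 537 genes that entered only through the miR-34a library. Calls were most frequent where reads were few. Of the 322 genes with a mean under 50 reads, 18.0% were called higher and 8.70% lower, and of the 403 genes with 10000 or more only 3 and 2 were called. Of 89 read-through loci entering, whose exons belong to neighbouring genes too, 9 were higher and 15 lower.

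**Figure D1:**
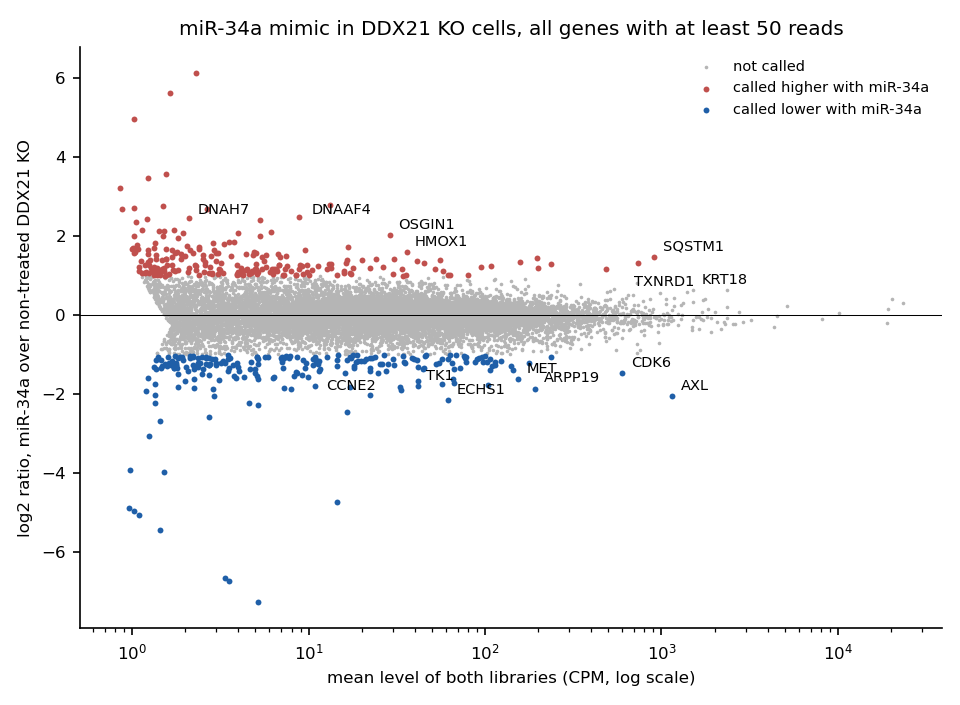
Log2 ratio of miR-34a over non-treated DDX21 KO (vertical) against the mean level of both libraries in CPM (horizontal, log scale), 1 point per gene for 13382 genes. Red points (217) were called higher and blue points (226) lower. Among abundant genes AXL and CDK6 lie lowest, while SQSTM1 and TXNRD1 lie highest.

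The reported direct targets of miR-34a were mostly low in the transfected cells. Of 79 listed genes 65 entered, 16 were lower and 1 higher, and 52 had a ratio below 0. Their median log2 ratio was -0.62, against 0.0002 over all genes, and in H1299 it was -0.73. The list was drawn from the literature with earlier results of these data known. Of the 14 that did not enter, CSF1R, INHBB, KIT, WNT1, MYCN, GRM7, NANOG, CCL22 and TREM2 had 0 reads in both DDX21 KO libraries.

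Receptors and ligands were divided. Of 12 entering, AXL and MET were lower and CD274 higher, and the median was -0.14, or -0.41 without the 2 that entered only through the miR-34a library. AXL, a receptor tyrosine kinase, had 448 CPM with miR-34a and 1859 CPM without, a 4.15-fold lower level and a log2 ratio of -2.05 (-2.08 to -2.03). MET, the receptor of hepatocyte growth factor, had 75.3 CPM with miR-34a and 233 CPM without, with a log2 ratio of -1.63 (-1.70 to -1.56). Both were called lower in H1299 as well. CD274, the checkpoint ligand PD-L1, had 13.8 CPM with miR-34a and 5.72 CPM without, with a log2 ratio of 1.26 (1.00 to 1.54), although its 3' UTR holds the 7-mer-A1 shown above. The Notch receptor NOTCH2 stood at 72.9 and 112 CPM, a log2 ratio of -0.62 (-0.70 to -0.55) that was not called, and the Notch ligand JAG1 at 16.5 and 15.8 CPM. The growth factor gene VEGFA stood at 32.8 and 23.0 CPM, with a ratio of 0.51 (0.37 to 0.66).

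The cell cycle targets formed the lowest of the 5 groups. Of 14 entering, 6 were lower and none was higher, and the median was -0.87. The G1 kinase CDK6 had 317 CPM with miR-34a and 884 CPM without, and its partner in that role CDK4 had 69.8 and 159 CPM. Their log2 ratios were -1.48 (-1.51 to -1.45) and -1.19 (-1.26 to -1.12). The longest annotated 3' UTR of CDK6 held 3 matches of 7 or 8 bases and that of CDK4 none. E2F5, an E2F factor that binds pocket proteins, was at 14.2 and 52.5 CPM, with a ratio of -1.89 (-2.05 to -1.74). CCNE2, an E-type cyclin, was at 6.47 and 16.7 CPM, and GMNN, the licensing inhibitor geminin, at 49.3 and 102 CPM. Genes on the opposite strand overlap 43.2% of the exonic bases of CDK4 and 37.1% of those of CCNE2. The counter's use of strand is not stated. TPD52, an overexpressed protein of several carcinomas, was at 47.0 and 161 CPM. Not called were BIRC5, the survivin gene, at -0.96, MYBL2 at -0.77, the phosphatase gene CDC25A at -0.65, the G1 cyclin CCND1 at -0.56 and MYC at 0.15 (0.07 to 0.23).

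Among the signalling targets 4 of 12 were lower and none was higher, with a median of -0.53. The small GTPase RRAS had 4.82 CPM with miR-34a and 16.8 CPM without, with a log2 ratio of -1.79 (-2.07 to -1.54). FOSL1, a Fos family member, was at 12.5 and 32.0 CPM and -1.35 (-1.53 to -1.19). ARHGAP1 was at -1.08 (-1.30 to -0.86), and MAP2K1, the ERK pathway kinase MEK1, at -1.02 (-1.12 to -0.92), just past the limit, and just short of it when the libraries were scaled by total counts. RICTOR, a subunit of the mTORC2 kinase, and the kinase MAP3K9 had ratios above 0, at 0.26 and 0.29.

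Of 14 targets in transcription and chromatin 2 were lower, with a median of -0.64. TGIF2, a repressor of TGF-beta signalling, had 12.2 CPM with miR-34a and 32.4 CPM without, and a log2 ratio of -1.41 (-1.59 to -1.24). The histone deacetylase HDAC1 had 40.6 and 104 CPM and a ratio of -1.35 (-1.45 to -1.26). The deacetylase SIRT1 was at -0.68 (-0.79 to -0.57) and the mesenchymal repressor ZEB1 at -0.76 (-0.87 to -0.65), neither called. KLF4, a zinc finger factor, was at 8.05 and 7.58 CPM and TWIST1, another mesenchymal factor, at 11.9 and 8.32 CPM, with ratios of 0.09 and 0.51.

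Of the 13 targets in survival, metabolism and transport, 2 were lower, with a median of -0.60. ACSL4, which activates polyunsaturated fatty acids, had 78.8 CPM with miR-34a and 208 CPM without, and a log2 ratio of -1.40 (-1.46 to -1.33). SYT1, a calcium sensor of vesicle release, had 6.74 and 15.2 CPM and a ratio of -1.16 (-1.41 to -0.93). Lactate dehydrogenase LDHA was at -0.74 and the survival factor BCL2 at -0.68 (-0.95 to -0.42).

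**Figure D2:**
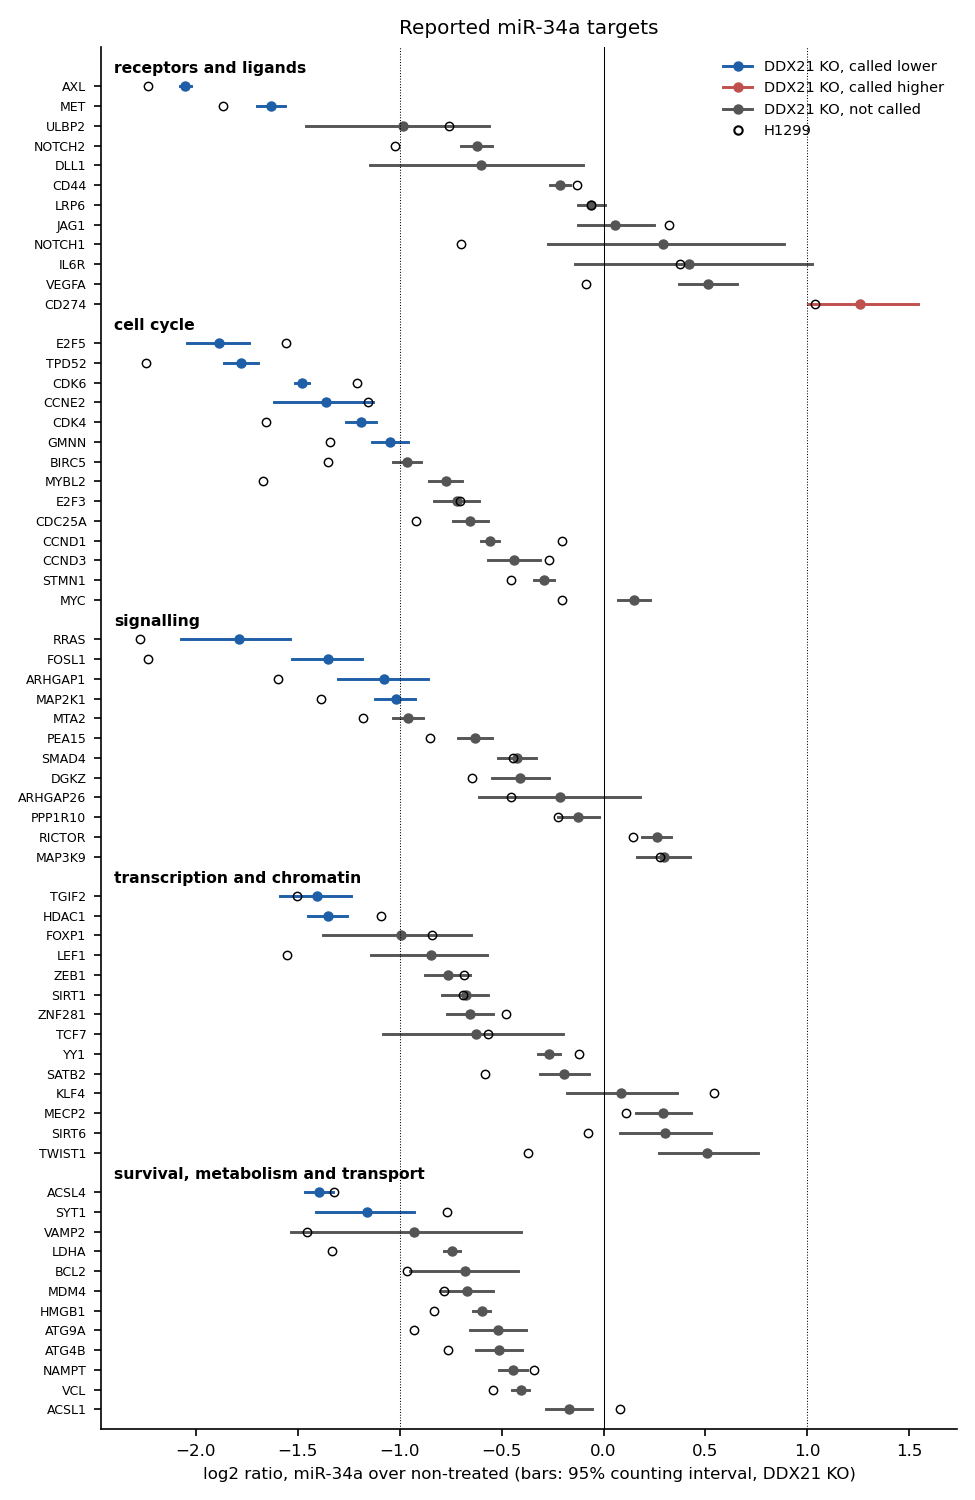
Log2 ratio of miR-34a over non-treated cells (horizontal) for 64 of the 65 reported targets that entered, grouped by role. Filled points with 95% counting intervals are DDX21 KO, blue where called lower and red where called higher, and open points are H1299. The 16 blue points lie at or below -1.02, and CD274 is the only red point, at 1.26.

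Genes with a seed match in the 3' UTR had lower ratios than genes with none, lowest for the 8-mer. A 3' UTR was found for 11637 protein-coding genes. The 786 genes with an 8-mer, 6.75% of these, had a median log2 ratio of -0.14, with 46 lower (5.85%) and 5 higher. The 1487 genes with a 7-mer-m8 had a median of -0.04 and 44 lower (2.96%), and the 814 with a 7-mer-A1 had -0.06 and 18 lower (2.21%). The 1429 genes with only a 6-mer were at -0.01 with 15 lower (1.05%). The 7121 genes with no match were at 0.04, with 56 lower (0.786%) and 131 higher (1.84%). The medians were small beside the SD of 0.45 over all genes. A share of 65.4% of the 8-mer genes had a ratio below 0, against 44.8% of the genes with no match.

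Genes with more than 1 match had lower medians than genes with 1. Genes with 0, 1, 2, 3 and at least 4 matches of 7 or 8 bases had medians of 0.03, -0.05, -0.14, -0.09 and -0.16. Since long 3' UTRs hold more matches, the genes were also divided by 3' UTR length into 3 equal groups. The 8-mer genes had medians of -0.21 up to 1090 bases, -0.18 up to 2523 bases and -0.11 above, against 0.05, 0.03 and 0.03 for genes with no match in the same length groups. Outside the 3' UTR the differences were smaller: an 8-mer in the coding sequence of a gene with no 3' UTR match went with a median of -0.05 (351 genes), against 0.05 for 4979 genes with neither. With the most abundant transcript of each gene in place of that with the longest 3' UTR, the 8-mer median was -0.17 in 546 genes, and it was 0.03 in 7326 genes with no match.

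Matches to the opposite strand, miR-34a-3p, were counted in the same way. The 265 genes with its 8-mer GCTGATTA had a median of -0.12 with 16 lower (6.04%), against 0.03 for 6710 genes with no 3p match. Of these, 123 had no match to miR-34a-5p, and their median was -0.08 with 7 lower, against 0.05 for 4628 genes with neither. The median of the 3p 8-mer genes was close to the -0.14 of the 5p 8-mer genes. In the short, middle and long 3' UTR groups used above, 3p 8-mer genes had medians of -0.03, -0.24 and -0.11 (19, 69 and 177 genes). Genes with no 3p match in these groups were at 0.04, 0.03 and 0.02. Genes that also hold a 5p match were kept in this split. The part of the 3p strand in the levels was not tested.

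Counted from the side of the calls, 60.3% of 179 genes called lower held a match of 7 or 8 bases, against 26.5% of all genes with a 3' UTR and 17.1% of 175 genes called higher. For the 8-mer alone the shares were 25.7%, 6.75% and 2.86%. Among the reported targets, 27 held an 8-mer (median -0.74, 10 lower), 18 a 7-mer-m8 (-0.46, 4 lower), 10 a 7-mer-A1 (-0.58, none lower) and 10 a 6-mer or none (-0.37, 2 lower). The last 2 were CDK4 and GMNN. Targets are often reported for such a match, so the share of targets that hold it is no result.

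**Figure D3:**
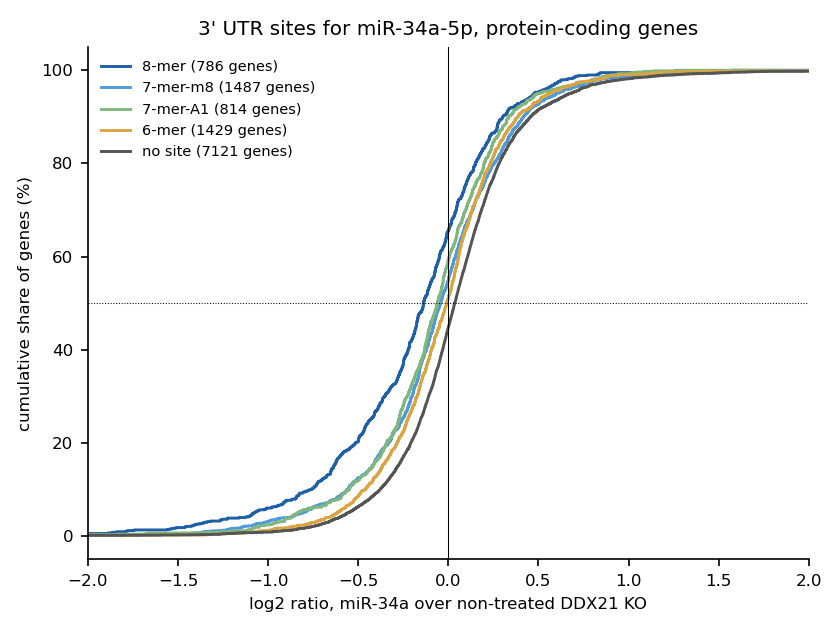
Cumulative share of protein-coding genes (vertical, percent) by log2 ratio of miR-34a over non-treated DDX21 KO (horizontal), divided by the strongest match to the miR-34a-5p seed in the 3' UTR. The 8-mer curve lies farthest left, with a median of -0.14, and the curve of genes with no match farthest right, at 0.04.

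Genes of S phase and mitosis had low ratios as groups, although few single genes reached 2-fold. Among all genes 1.69% were called lower. In bulk RNA, fewer cells in a phase of the cycle and less RNA per cell cannot be told apart. In the 49 genes of DNA replication the median log2 ratio was -0.49, 46 ratios were below 0 and 3 were called lower. GINS3, a subunit of the replicative helicase, had 8.60 CPM with miR-34a and 23.7 CPM without, and a ratio of -1.46 (-1.67 to -1.26). The helicase subunits MCM3 and MCM2 were at -1.17 (-1.25 to -1.10) and -1.06 (-1.11 to -1.01). POLD4, a small subunit of polymerase delta, had the highest ratio of the list, 0.56. Only 7 of the 49 held a match of 7 or 8 bases, with a median of -0.55, and the other 42 had a median of -0.48.

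In nucleotide supply 1 of 20 genes was lower, beside 1.69% of all genes, with a median of -0.49. It was TK1, the thymidine kinase of S phase, which had 18.6 CPM with miR-34a and 64.8 CPM without and a log2 ratio of -1.80 (-1.93 to -1.67). RRM2, a subunit of ribonucleotide reductase, was at -0.71 and thymidylate synthase TYMS at -0.64, neither called. Of 49 genes of mitosis and the kinetochore 47 had ratios below 0, 2 were lower and the median was -0.53. HMMR, a spindle protein, had 63.6 and 154 CPM and a ratio of -1.28 (-1.36 to -1.20), and SPC25, of the kinetochore, had 11.8 and 26.5 CPM and -1.16 (-1.35 to -0.99). The mitotic regulators FOXM1 at -0.81 and CCNB1 at -0.74 were not called. Matches of 7 or 8 bases were found in 8 of these 49 genes, and the 41 without had a median of -0.51.

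Among 31 genes of homologous recombination and the Fanconi pathway 30 had ratios below 0, with a median of -0.46. Called lower was 1 of them, beside 1.69% of all genes. RMI1, of the complex that dissolves Holliday junctions, was lower at 11.3 and 25.8 CPM, with a ratio of -1.19 (-1.38 to -1.01). FANCF, of the Fanconi core complex, was alone above 0, at 0.96 (0.53 to 1.45). Of 21 G1 cyclins, kinases and inhibitors 4 were lower, CDK6, CCNE2 and CDK4 as above and the activator E2F2 at -1.07 (-1.27 to -0.89), with a median of -0.37. The kinase inhibitors CDKN1A, CDKN1B and CDKN2B had ratios of 0.16, 0.24 and 0.66.

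All 57 replication-dependent histone genes that entered had ratios below 0, with a median of -0.69, and 5 were called lower. Their summed level was 6338 CPM with miR-34a and 10142 CPM without, and their share of all counts was 0.644% and 1.02%. H2BC7 was lowest, at 16.8 and 39.5 CPM and -1.23 (-1.38 to -1.08), followed by H4C4 at -1.20 and H2AC14 at -1.18. The copies are near-identical in sequence, so values of single histone genes are uncertain. The reads come from libraries without poly(A) selection, in which histone messages are kept.

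**Figure D4:**
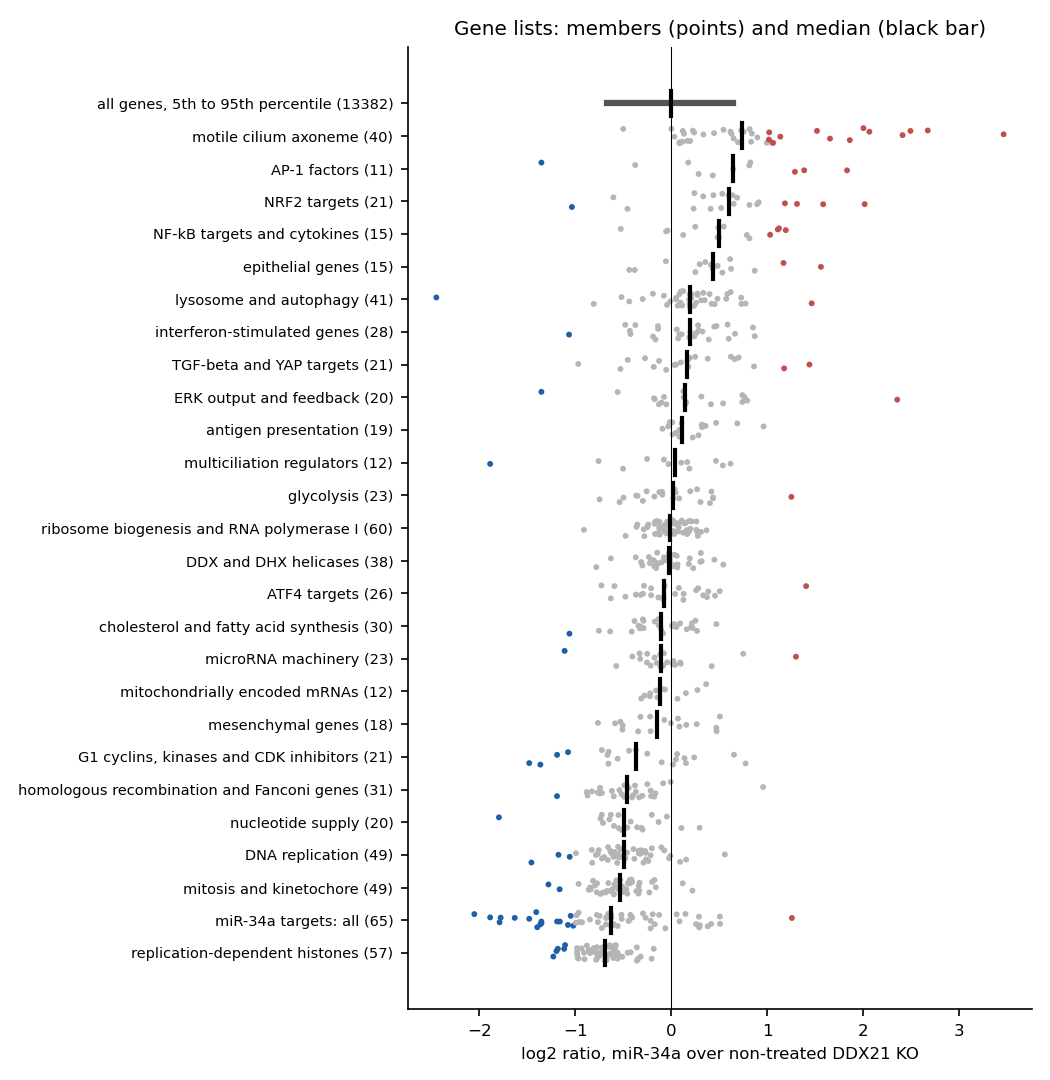
Log2 ratio of miR-34a over non-treated DDX21 KO (horizontal) for each entering member of 26 gene lists, ordered by their medians (black bars), with the number of members in brackets. Red points were called higher and blue points lower. The top line spans the 5th to 95th percentile of all genes, -0.66 to 0.64. Histones have the lowest median, -0.69, and motile cilium genes, 13 of which entered only through the miR-34a library, the highest, 0.74.

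Several antioxidant genes were higher with miR-34a. NRF2 is the factor that induces detoxifying and antioxidant enzymes. Of 21 of its targets 4 were higher and 1 lower, beside 1.62% and 1.69% of all genes, with a median log2 ratio of 0.60. OSGIN1, an oxidative stress inhibitor of growth, had 46.3 CPM with miR-34a and 11.4 CPM without, and a ratio of 2.02 (1.85 to 2.21). Heme oxygenase HMOX1 had 53.9 and 17.9 CPM and a ratio of 1.59 (1.44 to 1.74). Thioredoxin reductase TXNRD1 had 1049 and 422 CPM, with a ratio of 1.31 (1.28 to 1.34), and sulfiredoxin SRXN1 276 and 121 CPM, although 85.0% of the exonic bases of SRXN1 lie in another annotated gene as well. The quinone reductase NQO1, the glutathione synthesis subunit GCLM and the cystine transporter SLC7A11 were at 0.60, 0.53 and 0.34, not called. AKR1C2, which has near-identical paralogs, was lower at 1.43 and 3.01 CPM.

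The autophagy receptor SQSTM1 had the highest CPM of the genes called higher, with 1339 CPM with miR-34a and 485 CPM without and a log2 ratio of 1.47. It was the only 1 of 41 lysosome and autophagy genes called higher, and CD68, a lysosomal glycoprotein, the only 1 called lower. Among all genes 1.62% were called higher and 1.69% lower. The median of the list was 0.20, and 32 ratios lay above 0. CD68 was at 5.03 and 27.8 CPM and -2.45 (-2.72 to -2.22), but it shares 81.7% of its exonic bases with another gene and is uncertain. Of 26 targets of ATF4, the factor of the integrated stress response, only DDIT3, a stress-induced transcription factor, was called, at 80.3 and 30.2 CPM and 1.41 (1.30 to 1.53). On either strand 39.6% of the exonic bases of DDIT3 lie in another gene too, and the counter's use of strand is not stated. The median of that list was -0.07.

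Immediate early and inflammatory genes also held calls, beside 1.62% of all genes called higher and 1.69% lower. Of 11 AP-1 factors 3 were higher and FOSL1 lower, with a median of 0.65. FOS, 1 of the 3, entered only through the miR-34a library, where such a gene had to have more reads. Of the other 10 factors 2 were higher and 1 lower, with a median of 0.54. FOS had 4.55 CPM with miR-34a and 1.23 CPM without, and a log2 ratio of 1.84 (1.34 to 2.48). The small Maf factor MAFF was at 1.39 (1.19 to 1.61) and ATF3 at 1.29 (1.07 to 1.54), while JUNB was at 0.83 and JUN at 0.44. In 20 genes of ERK output and feedback the median was 0.14, with EGR1 higher on 59 and 8 reads, 2.36 (1.53 to 3.88), and FOSL1 lower. EGR1 also entered only through the miR-34a library, and none of the other 19 genes was higher. Of 15 NF-kB targets and cytokines 4 were higher and none lower, with a median of 0.50. Of the 15, 2 entered only through the miR-34a library, among them CXCL1, and 3 of the other 13 were higher. LIF, a cytokine of the interleukin-6 family, had 25.0 and 10.9 CPM, the cytokine IL32 21.8 and 10.1 CPM, the adhesion molecule ICAM1 23.2 and 11.3 CPM and the chemokine CXCL1 1.86 and 0.817 CPM. The mitochondrial dismutase SOD2 was at -0.53.

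None of 28 interferon-stimulated genes was higher, and IFI35 was lower at 3.78 and 7.98 CPM and -1.06 (-1.41 to -0.75). The median of the list was 0.19, and 1.62% of all genes were higher and 1.69% lower. None of 19 antigen presentation genes was called, with a median of 0.11 and the highest ratio in HLA-F, 0.96 (0.52 to 1.48).

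Genes of the motile cilium axoneme had ratios above 0 in nearly all members that entered. The axoneme is the microtubule core of beating cilia and sperm tails, with dynein arms, radial spokes and a central pair. Of 98 listed genes 40 entered, 13 of them only through the miR-34a library and 1 only through the non-treated one, and a gene that entered only through the miR-34a library had to have more reads there. Of the 40, 14 were higher and none lower, 39 ratios lay above 0 and the median log2 ratio was 0.74. Of the 14 called, 10 had entered only through the miR-34a library. In the other 27 genes 4 were higher, DNAAF4, HYDIN, CFAP299 and CFAP91, 26 ratios lay above 0 and the median was 0.62. Reads were few: DNAAF5, a dynein assembly factor, had the most of the 40, with 114 and 72.3 CPM and a ratio of 0.65, and all called members but DNAAF4 and HYDIN lay below 10 CPM in both libraries.

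The called members came from several parts of the axoneme. DNAH7, an inner arm dynein heavy chain, had 295 reads with miR-34a and 44 without, and a log2 ratio of 2.41 (2.00 to 2.95). DNAH6, another dynein heavy chain, had 1.62 and 0.743 CPM and a ratio of 1.06 (0.36 to 1.94). The dynein assembly factors DNAAF4 and DNAAF3 were at 2.50 (2.16 to 2.91) and 1.06 (0.60 to 1.61), although 40.4% and 14.5% of their exonic bases are shared with a neighbour. SPEF1 and HYDIN, of the central pair, had 4.64 and 0.668 CPM and 14.6 and 4.57 CPM, with ratios of 2.68 (2.09 to 3.59) and 1.66 (1.38 to 1.97). HYDIN has a copy on chromosome 1, the pseudogene HYDIN2, which was higher too, at 3.26 and 1.00 CPM, so reads of the pair are uncertain.

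ROPN1L, of the radial spokes, rested on 76 and 4 reads, 3.47 (2.55 to 5.88). CFAP206 and CFAP91, which also bind the spokes, were at 1.86 (1.41 to 2.44) and 1.02 (0.73 to 1.34), with 55.7% and 32.8% of exonic bases shared. The dynein regulatory complex members DRC3, CCDC65 and IQCD were at 2.07, 2.01 and 1.02, each on at most 104 reads. CFAP53 and CFAP299 were at 1.52 and 1.14. At the other end, the spoke head gene RSPH4A was at -0.50 (-1.13 to 0.08) and the dynein heavy chain DNAH14 at 0.00 (-0.13 to 0.13). Among genes with more reads the ratios were smaller, as in the dynein heavy chain DNAH5 at 57.0 and 37.1 CPM and 0.62.

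Regulators of multiciliation gave 1 call, beside 1.69% of all genes called lower. Of 12 entering, none was higher and E2F5 was lower, with a median of 0.04. MCIDAS, a coactivator that starts the multiciliated program, had a ratio of -0.50 (-0.90 to -0.12), and CCNO, a cyclin of the same program, at 2.59 and 1.86 CPM and 0.47 (-0.04 to 1.02). The ciliary transcription factors RFX2 and RFX3 were at -0.76 and 0.11. Only 8 of the 40 axoneme genes held a match of 7 or 8 bases for miR-34a-5p.

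**Figure D5:**
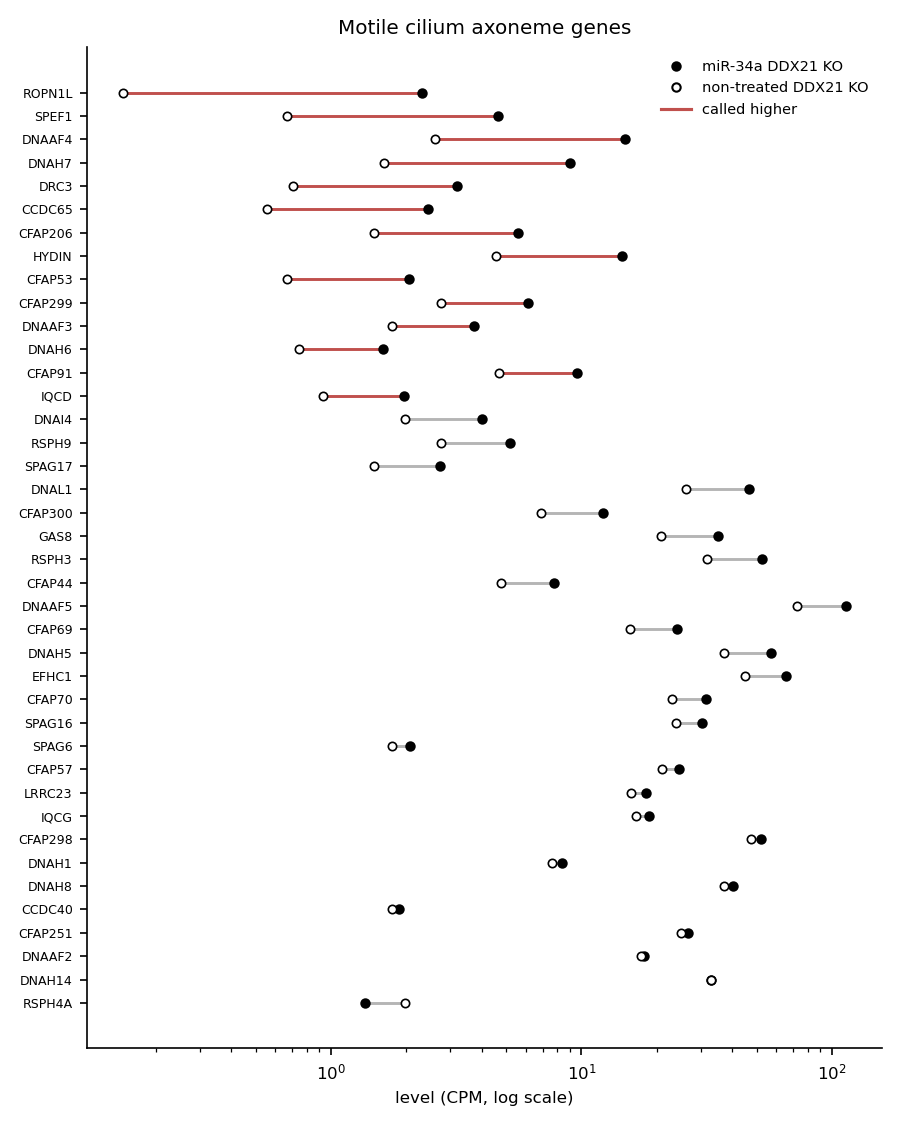
Level of the 40 motile cilium axoneme genes that entered (horizontal, CPM on a log scale), with filled points for miR-34a DDX21 KO and open points for non-treated DDX21 KO. Red lines join the values of the 14 genes called higher. RSPH4A is the only gene whose filled point lies to the left, at 1.37 against 1.97 CPM.

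Adhesion and matrix lists held 2 calls or none each, beside 1.62% of all genes called higher. Of 21 TGF-beta and YAP targets, CCN2 and THBS1 were higher, and the median log2 ratio was 0.17. CCN2, a matricellular growth factor, had 289.98 CPM with miR-34a and 106.6 CPM without, with a ratio of 1.44, and thrombospondin THBS1 was at 1.18 (1.14 to 1.22). Both had ratios below 1 in H1299, 0.84 and 0.83. Of 15 epithelial genes the tight junction genes TJP3 and CLDN1 were higher, at 1.56 (0.96 to 2.37) and 1.17 (1.06 to 1.29), with a median of 0.43. Of the 15, 3 entered only through the miR-34a library, 1 of them called. Among the other 12 genes 1 was higher and the median was 0.39. None of 18 mesenchymal genes was called, with a median of -0.14.

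Metabolic lists lay near the median of all genes and held 1 call or none each, beside 1.62% of all genes higher and 1.69% lower. In glycolysis the glucose transporter SLC2A3 was higher, at 153 and 64.1 CPM and 1.25 (1.18 to 1.34), and the median over 23 genes was 0.03. In cholesterol and fatty acid synthesis MVD, an enzyme of the mevalonate pathway, was lower, at 15.3 and 32.0 CPM and -1.06 (-1.23 to -0.90), with a median of -0.11 over 30 genes. The 12 mitochondrially encoded messages that entered had ratios between -0.31 and 0.37 and no call.

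The machinery around DDX21 and around microRNAs was also compared, beside 1.62% of all genes called higher and 1.69% lower. None of 60 genes of ribosome biogenesis and RNA polymerase I was called, with a median of -0.02 and the lowest ratio in the helicase DDX10, -0.91 (-1.03 to -0.79). None of 38 DDX and DHX helicases was called either, with a median of -0.02. DDX50, the paralog next to DDX21, stood at 73.2 and 70.2 CPM. Of 23 genes of microRNA processing and silencing DCP2, the catalytic subunit of mRNA decapping, was higher at 338 and 137 CPM, with a log2 ratio of 1.30 (1.25 to 1.36). MOV10, an RNA helicase that binds Argonaute, was lower at 19.0 and 41.1 CPM and -1.11 (-1.26 to -0.97). Both had like ratios in H1299, 1.17 and -1.12. The Argonaute gene AGO2 was at 0.75 (0.70 to 0.80), not called.

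The 20 lowest protein-coding genes, by the bound of the interval nearest to 0, were taken without histone genes and read-through loci. They held 15 with a match of 7 or 8 bases, against 26.5% of all genes with a 3' UTR. Of these 20, 7 belong to the lists above, 6 of them with a match, and of the 13 in no list 9 held a match. ARPP19, an inhibitor of the phosphatase PP2A at mitotic entry, had 83.0 CPM with miR-34a and 302 CPM without, and a log2 ratio of -1.87 (-1.93 to -1.80). TMED8, a GOLD domain protein, was at -1.74 (-1.86 to -1.63), TSEN15, of the tRNA splicing endonuclease, at -1.82 (-1.98 to -1.67), MIEF1, a mitochondrial fission factor, at -2.04 (-2.24 to -1.85) and FOXN3, a forkhead repressor, at -1.68 (-1.81 to -1.55). MPP2, a scaffold protein of the MAGUK family, rested on 36 and 128 reads, -2.05 (-2.69 to -1.57). SNX15, a sorting nexin, was at -1.84, but shares 39.4% of its exonic bases with a neighbour. RTL8B, at -2.29, has near-identical copies.

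The 5 of these 20 with a 6-mer or no match in the 3' UTR were ECHS1, CD68, STAG3, OR3A1 and PPFIA2. ECHS1, an enzyme of mitochondrial fatty acid oxidation, had 22.6 CPM with miR-34a and 101 CPM without, and a log2 ratio of -2.15 (-2.27 to -2.03). Its ratio in H1299 was also -2.15. The meiotic cohesin subunit STAG3 had 31.0 and 102 CPM and a ratio of -1.72 (-1.83 to -1.62). CD68 holds an 8-mer in its coding sequence. OR3A1, an olfactory receptor, rested on 14 and 61 reads, and its ratio of -2.24 was only -0.24, not called, on the FPKM scale. PPFIA2, a liprin, had 0 and 52 reads, at least 21.1-fold lower against the floor of 3 counts in the miR-34a library, a bound that leaves out counting error in the other.

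The 20 highest protein-coding genes, taken in the same way, held 3 with a match of 7 or 8 bases, against 26.5% of all genes with a 3' UTR. Most of the 20 entered only through the miR-34a library, where such genes had to have more reads. Besides the axoneme and NRF2 genes above the 20 included TCTN2, of the ciliary transition zone. It was at 25.6 CPM with miR-34a and 7.69 CPM without, with a log2 ratio of 1.73. RAB6B, a Golgi GTPase, had 213 and 40 reads and a ratio of 2.08 (1.64 to 2.65), and HKDC1, a hexokinase family member, at 3.60 and 0.594 CPM and 2.47 (1.84 to 3.45). DCDC1, a doublecortin domain protein, FANK1 and CFAP94 were at 2.76, 2.15 and 2.14 on 9 to 94 reads. BSPRY rested on 52 and 3 reads. ATXN3L, a retrocopy of ATXN3, had 107 and 0 reads, at least 29.3-fold higher against the floor, and is uncertain, as are SULT1A4 and RAB4B, which share 85.2% and 36.8% of exonic bases.

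Of 904 long noncoding RNAs 29 were higher and 23 lower, with a median of -0.02. Both shares were above those of all genes, 1.62% higher and 1.69% lower. As given above, calls were most frequent where reads were few, and long noncoding RNAs were not compared with other genes at like numbers of reads. The 10 highest noncoding genes included NRAV at 17.5 CPM with miR-34a and 7.76 CPM without, 1.17 (0.95 to 1.41), LOC105371453 at 9.70 and 3.97 CPM, 1.27 (0.97 to 1.62), and SLC9A3-AS1 at 5.98 and 1.60 CPM, 1.86 (1.42 to 2.42). LINC00664 was lower at 2.14 and 6.46 CPM, with a ratio of -1.57 (-2.02 to -1.19). RNA28SN3, a 28S ribosomal RNA copy, was lower at 1.59 and 7.65 CPM, while the precursor RNA45SN1 was at 2021 and 1516 CPM and 0.41. Ribosomal RNA was depleted before sequencing and its copies are near-identical, so both are uncertain.

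In absolute terms the largest differences lay elsewhere. By CPM the signal recognition particle RNAs RN7SL1 and RN7SL2 differed most on the high side, with 25806 and 20890 CPM and 23022 and 17486 CPM. They are near-identical to each other and had ratios of 0.30 and 0.40. On the low side EEF1A1, a translation elongation factor, came first with 17682 and 20447 CPM, a ratio of -0.21. Next came AXL, the glycolytic enzyme gene GAPDH with 3883 and 4762 CPM, CDK6, and the tubulin gene TUBA1B with 1637 and 2192 CPM. ITGA6, an integrin chain, at 531 and 978 CPM, and TDRD12, a Tudor domain protein of the piRNA pathway, at 490.0 and 962 CPM, had ratios of -0.88 and -0.97, just inside the limit for a call.

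The response in DDX21 KO cells was then set beside that in H1299. The SD of the log2 ratio was 0.45 in DDX21 KO cells and 0.60 in H1299, where 492 genes (3.62%) were higher and 581 (4.27%) lower of 13597 entering. Of the genes called in DDX21 KO, 115 were also higher and 136 also lower in H1299, 63 higher and 66 lower genes entered in H1299 without a call, and 10 had opposite calls. The histone median was -0.69 in DDX21 KO and -1.57 in H1299, where 55 of 57 were lower. The log2 ratio in H1299 was also subtracted from that in DDX21 KO, with an interval from Poisson variances. By the same limits this difference was called above 0 for 297 genes (2.13%) and below 0 for 289 (2.07%) of 13964.

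The 16 targets called lower in DDX21 KO were picked by their ratio in that line. None of them had a called difference, and 15 of the 16 were called lower in H1299 too, all but SYT1. Of the 64 listed targets that entered in H1299, 22 were called lower there. Over all listed targets the median difference was 0.16, with 1 called below 0 and none above. For AXL the difference was 0.18 (0.14 to 0.22), for CDK4 0.47 (0.36 to 0.57) and for FOSL1 0.88 (0.65 to 1.11), while for CDK6 it was -0.27 (-0.31 to -0.22) and for E2F5 -0.33 (-0.54 to -0.12). Of the replication-dependent histone genes 16 had a called difference above 0 and none below, among them H2AC14 with 1.02 (0.90 to 1.13). Of the interferon-stimulated genes 6 had a called difference below 0 and none above. Over all genes the shares were 2.13% above and 2.07% below 0. Among the called differences in other lists, not all of which are named, were TYMS, with 1.19 (1.07 to 1.31), and LIF, with -1.32 (-1.67 to -0.97). Of the cilium list 6 genes had a called difference below 0 and 1 above 0. Below 0 were SPAG17 at -4.41, CFAP206 at -1.53 (-2.29 to -0.78), SPAG6 at -1.37, DNAI4 at -1.05, and CFAP54 and AK8, which did not enter in DDX21 KO, while CCDC65 was above 0 at 1.04 (0.02 to 2.06). EGR1 had 1.36 (0.32 to 2.40). The largest differences, as in ATXN3L and IFI44, rested on genes with few reads in at least 1 of the 4 libraries.

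Single transcripts were compared last, and their estimates moved far more than those of genes. Of 39593 transcripts with at least 50 reads in either library 8660 (21.9%) were higher and 8029 (20.3%) lower. Where a gene had only 1 entering transcript, 5.12% of 5074 were higher and 3.80% lower. Where it had several, 24.3% and 22.7% of 34519 were. A total of 4738 transcripts had at least 50 reads in 1 library and 0 in the other, 4622 of them in genes that were not called. In YWHAZ, a 14-3-3 protein gene with a log2 ratio of 0.00, the transcript NM_003406 had 6685 reads with miR-34a and 243 without, while XM_005251061 had 163 and 14630. DDX3X, a DEAD-box helicase gene at 0.20, had 22628 and 558 reads on XM_017029313 but 1876 and 13570 on NM_001356. Isoforms of 1 gene share most of their sequence, and the sources used here do not say how reads were divided between them.

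Isoforms with and without a seed match gave no clear difference in these estimates. In 424 genes with both kinds, the isoforms with a match of 7 or 8 bases had the lower ratio in 225 (53.1%), and the median difference was -0.07, with quartiles of -0.89 and 0.85. The main transcript of DDX21, NM_004728, had 5344 reads with miR-34a and 5254 without.

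The authors' deposited table of their own comparisons gives a fold for this pair of libraries. By the authors' deposited table, 59 genes were at least 2-fold higher and 46 lower at a raw p-value under 0.05, and 1 had an adjusted p-value under 0.05. The authors' deposited table gives it, the read-through locus ANKHD1-EIF4EBP3, a fold of -27.8 and an adjusted p of 0.0270. Of those genes at 2-fold or more and a raw p-value under 0.05 in the authors' deposited table, 61 had enough reads to enter here, and all 61 were called in the same direction. Both sets of folds come from the same pair of libraries, so this is no independent check.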

How the data were processed

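Estimated counts per gene and per transcript, deposited as whole numbers, and the matching FPKM and TPM values were made by the authors on GRCh38, and Bowtie2 2.0.6 and TopHat2 2.0.9 are named in the submitters' processing notes. The counter, its use of strand and whether a read pair counts as 1 or 2 are not stated. The authors' table of comparisons, as deposited, holds raw and adjusted p-values and a fold with a sign, handled as a score. From the counts, TMM library sizes were computed in edgeR 4.0.16 (R 4.3.3), and log2 ratios with a prior count of 2 and 95% Clopper-Pearson intervals of the split of reads in scipy 1.17.1. Intervals and floors cover counting error only. No count test was run, since each group had 1 library. Alternatives were count minimums of 10 and 200, DESeq2 1.42.0 size factors, total counts, other priors, other folds for a call, and FPKM with a pseudocount of 0.1. The functions were tested on simulated counts. By rule the text names DDX21, DDX50, the reported targets, called list members, the 20 highest and 20 lowest protein-coding genes, noncoding genes and transcript pairs at the extremes, the largest CPM differences and the largest differences between lines. Histone genes and read-through loci were left out of the 20 highest and 20 lowest. From long sets only some are named, and others were added after their values were seen. Some items are not reported here. The members and the 31 lists were chosen with earlier results of these data known.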

Additional observations from a re-analysis of the deposited data

Results flagged for a closer look

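In 10 genes the call in DDX21 KO cells was opposite to that in H1299. With 1 library per group the difference was not tested. The values below are the log2 ratio of miR-34a over non-treated cells in DDX21 KO minus that in H1299. On the low side they were -11.42 for MICOS10-NBL1, -4.04 for RPL41P3, -3.60 for RPS18P5, -3.29 for ZNF117, -3.27 for LOC101927365 and -2.16 for SORCS2. On the high side they were 11.49 for ATXN3L, 2.98 for LRP2BP, 2.82 for LOC105370461 and 2.30 for FMC1-LUC7L2. MICOS10-NBL1 and FMC1-LUC7L2 are read-through loci, RPL41P3 and RPS18P5 processed copies of ribosomal protein genes, and ATXN3L a retrocopy, so their reads may belong to other genes. The zinc finger gene ZNF117 had 244 reads with miR-34a and 720 without in DDX21 KO cells, and 294 and 115 in H1299. SORCS2, a sortilin family receptor, had 39 and 69 reads in DDX21 KO cells and 65 and 32 in H1299.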

How the results depend on the processing

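Counts of calls moved most with the reads and the fold required. Asking for 10 reads gave 618 higher and 628 lower genes, and asking for 200 gave 96 and 127. A limit of 1.5-fold gave 798 and 910, and 3-fold 52 and 48. Of listed genes 70 were called, against 243 at 1.5-fold and 20 at 3-fold. The difference between lines was above 0 for 692 and below 0 for 666 genes from 10 reads, and for 79 and 73 from 200. From 200 reads, 3474 transcripts were higher and 3184 lower. DESeq2 size factors, total counts, other priors, FPKM and, chosen after seeing the data, leaving out read-through loci kept these counts within 1.5 times wherever they were run. Medians of the target, histone, replication, mitosis, NRF2 and axoneme lists, and of 8-mer genes minus genes with no match, kept their sign and stayed within 1.5 times. Leaving out genes that entered only through the miR-34a library, also chosen after seeing the data, kept them too. The median of the multiciliation regulators was -0.05 from 10 reads and -0.03 from 200 or without such genes. Other medians that moved were those of receptor and ligand targets (-0.06 from 10 reads, -0.41 without such genes), mesenchymal genes (-0.22 and -0.07 from 10 and 200 reads) and antigen presentation (0.22 by FPKM). Of 100 named genes 5 changed side of the limit and none reversed: OR3A1 and MAP2K1 as given above, FOXP1 and ULBP2 called lower at a prior of 0.5, and VAMP2 called lower by FPKM at -1.01. The cause of these changes was not tested. No paired analysis was possible because each group had 1 library, and for the same reason none could be left out. Most called axoneme genes had few reads.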
